A study of Zea mays with 6 samples.

Results

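The maize mitochondrial genome codes for a small part of the respiratory chain, and its genes are described here in developing leaves of the hda108 mutant and of wild type. The gene table of the series holds 39604 entries, and 123 of them lie on the mitochondrial genome by their listed position. All 123 were taken. The hda108 plants were hda108/hda108 mutants, and HDA108 codes for a histone deacetylase, which takes acetyl groups off histones. The other group was wild type. In both groups the 11th leaf, still enclosed by older leaves, was taken from greenhouse plants at vegetative stage 8. Each genotype had 3 stranded total RNA libraries made after removal of ribosomal RNA, which the labels call biological replicates. The mutant alleles are given by the gene name alone, so how the gene was disrupted is not given in the sources used here.

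The deposited table has 1 value per entry and genotype, in FPKM, which relates the fragments sequenced from a transcript to its length and to all fragments mapped. The spread between the 3 libraries of a genotype is therefore not known here. Every difference below rests on a single pair of values without a replicate check, and there are no tests or errors to give. How deeply each library was sequenced is unknown. In bulk tissue, fewer cells of a type and less RNA per cell cannot be told apart. HDA108 itself had 3.06 FPKM in hda108 and 10.9 FPKM in wild type, which fits the labels. The leaf genes rbcs1, rca1, pep1, pdk1, me3, cab-m1 and lhcb4, taking the highest entry of each name, had 60.8 to 1263 FPKM in hda108 and 85.4 to 1808 FPKM in wild type. The highest of the seed genes zp27, zp15, o2 and fl2 had 0.775 FPKM in hda108 and 0.154 FPKM in wild type. By these entries all 7 leaf genes were lower in hda108, with log2 differences from -1.29 to -0.49. The weaker entry named pep1 (GRMZM5G899080) was higher, with 6.97 FPKM in hda108 and 5.45 FPKM in wild type, and the weaker pair named pdk1 differed by -0.25 and -0.08. The part of these genes in the mitochondrial differences was not tested.

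Plant mitochondria transcribe their own genome with a phage-type RNA polymerase that is imported from the cytosol, and the transcripts are spliced, edited and trimmed by nuclear-encoded proteins. The genome codes for subunits of respiratory complexes I, III, IV and V, for cytochrome c maturation proteins, for some ribosomal proteins and for a maturase, while most mitochondrial proteins come from nuclear genes. Many open reading frames of unknown function, called orf and numbered by their length in codons, lie between these genes. Neighbouring genes are often transcribed together.

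The table gives identifiers and positions but no names, and none of the 123 identifiers occurs among the RefSeq genes of Zm-B73-REFERENCE-NAM-5.0. Both ends of 85 entries were, however, identical to those of a RefSeq gene on the mitochondrial genome once 1 base was added to the listed start. With the start as listed 0 entries matched, and of 39284 entries on chromosomes 1 to 10 none matched in this way. A further 22 mitochondrial entries shared 1 of their ends with a RefSeq gene. The mitochondrial positions were therefore read as one coordinate system, and names were taken from RefSeq on that basis. An entry with both ends identical is called by the RefSeq symbol, and any other entry by its identifier with the genes that lie inside it. Positions below are those of the deposited table on B73 RefGen_v3, counted from 1.

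Of the 123 entries, 52 (42.3%) had a value above 0 in both genotypes, 5 were above 0 in hda108 alone, 4 in wild type alone, and 62 were listed at 0 in both. The share above 0 in both was 71.5% of the 39430 nuclear entries and 62.7% of the 51 plastid entries. Entries at 0 were concentrated among short ones. Of the 52 mitochondrial entries that span under 400 bp, 10 were above 0 in both genotypes, against 42 of the 71 that are longer. An exact 0 here may stand for an estimate that failed. It is reported here only as listed at 0, because several of these genes are needed in every cell. Cob, the gene for apocytochrome b of complex III (GRMZM5G884707, Mt:310906-312072), was listed at 0 in both genotypes. The ribosomal protein genes rps7 and rps13, the cytochrome c maturation gene ccmB, and the entry that covers cox3 (GRMZM5G884538) were also listed at 0 in both.

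**Figure D1:**
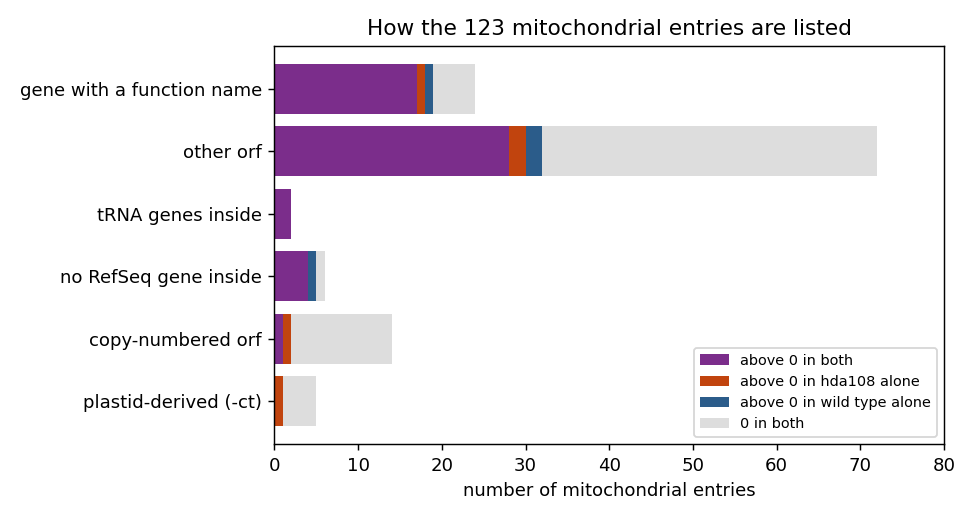
Number of mitochondrial entries (x axis) in each class of RefSeq content (y axis), coloured by whether the value was above 0 in both genotypes, in hda108 alone, in wild type alone or in neither. Of 24 entries with a function name 17 were above 0 in both, against 28 of 72 entries of other open reading frames and 1 of 14 copy-numbered ones. An entry with an exact symbol was classed by that symbol alone, so orf146-a, which also covers trnQ, counts as a reading frame.

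Entries with copy-numbered reading frames were mostly listed at 0. In the RefSeq symbols a final 1 or 2 marks the copies of a repeat, and -ct marks sequence derived from the plastid genome. Of the 14 entries with copy-numbered reading frames, such as orf115-c1 and orf115-c2 or orf106-a1 and orf106-a2, 12 were listed at 0 in both genotypes. The exceptions were orf158-a1, with 0.128 FPKM in hda108 and 0 in wild type, and GRMZM5G852144, which covers orf99-a1. GRMZM5G852144 had 60.2 FPKM in hda108 and 52.8 FPKM in wild type, while GRMZM5G897615, which covers the other copy, orf99-a2, was listed at 0 in both. The 14 leave out GRMZM5G894376 and GRMZM5G863003, which hold copy-numbered tRNA genes and were above 0 in both genotypes. Many of the 14 are also short, and 39 of the 52 mitochondrial entries under 400 bp were listed at 0 in both. Being a copy and being short were not told apart. Of the 5 plastid-derived entries, 4 were listed at 0 in both and 1 had 0.0245 FPKM in hda108 and 0 in wild type. How reads with several matching places were counted is not given in the sources used here, so values of repeated genes are uncertain.

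The mitochondrial entries that could be compared were mostly slightly higher in hda108. Differences were taken as log2(FPKM + 0.5) in hda108 minus log2(FPKM + 0.5) in wild type, a scale that understates the difference of genes with low values. Of the 52 entries, 46 were higher in hda108 and 6 lower, where 58.6% of all 28264 entries above 0 in both genotypes were higher. Without the 6 entries that share their position with another entry, 41 of 46 were higher. The median log2 difference was 0.25, with quartiles at 0.09 and 0.37, beside a median of 0.05 over all entries. A difference of at least 1.2-fold upward, a bound chosen after the values had been seen, was listed for 25 of the 52 entries, against 21.6% of all entries. In the other direction 1 of the 52 passed that bound, against 13.2% of all entries. Large differences were rare. One entry was at least 2-fold higher (1.92% of the 52, against 1.44% of all entries) and 0 were at least 2-fold lower (0.785% of all entries). In either direction 2.23% of all entries passed 2-fold, so the mitochondrial share was near the background.

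**Figure D2:**
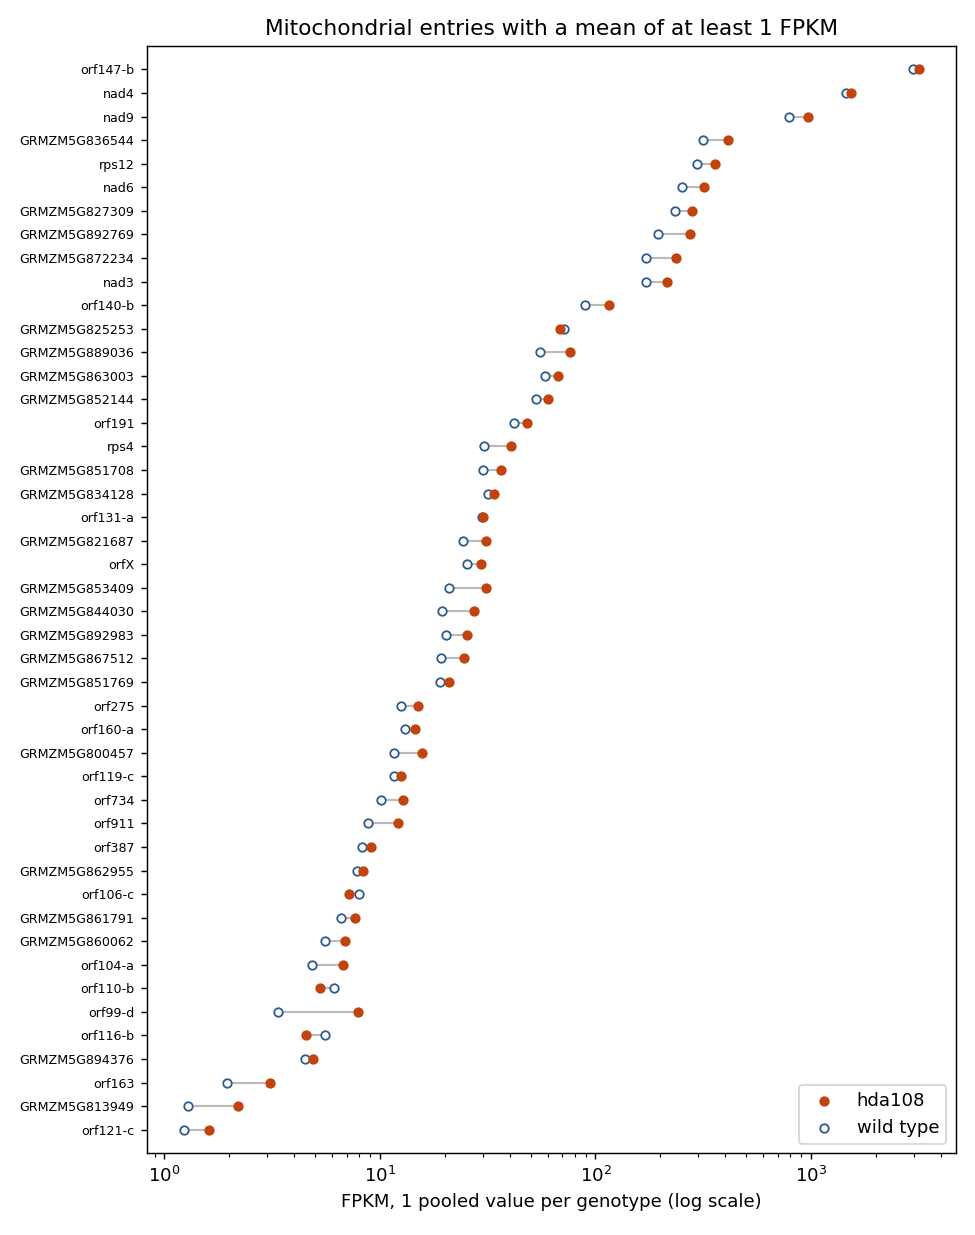
FPKM on a log scale (x axis) of the 46 mitochondrial entries with a mean of at least 1 FPKM (y axis, by RefSeq symbol or identifier), with a filled point for hda108 and an open point for wild type. The hda108 point lies right of the wild-type point in 42 of the 46 entries, and the exceptions are orf106-c, orf110-b, orf116-b and GRMZM5G825253.

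Complex I is the entry point of electrons from NADH, and the nad genes code for its mitochondrial subunits. Among the entries matched to a gene of known function, nad4 and nad9 had the highest levels. No entry was matched to cox1, atp1, atp6, atp9 or nad1, and cob and the entry covering cox3 were listed at 0. The levels of those genes are thus not known here. Nad4, a subunit of the membrane arm (GRMZM5G804358, Mt:76132-84976), had 1541 FPKM in hda108 and 1453 FPKM in wild type, a log2 difference of 0.08. Nad9, a subunit of the arm that projects into the matrix (GRMZM5G839924, Mt:101544-102116), had 973 FPKM in hda108 and 789 FPKM in wild type, a log2 difference of 0.30. For these 2 abundant genes the values differed by little in nad4 and by more in nad9, although both belong to 1 complex. Nad6, a membrane subunit (GRMZM5G897755, Mt:565003-565665), had 317 FPKM in hda108 and 252 FPKM in wild type, a log2 difference of 0.33. Nad3, another membrane subunit (GRMZM5G876913, Mt:262806-263162), had 216 FPKM in hda108 and 171 FPKM in wild type, a log2 difference of 0.34. Thus nad3, nad6 and nad9 lay close to each other, between 0.30 and 0.34, and nad4 below them.

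Other nad entries had far lower values. Nad7 (GRMZM5G856027, Mt:237577-243574), a catalytic core subunit, was listed at 0.0521 FPKM in hda108 and 0.0769 FPKM in wild type, so that no difference can be read from it. A pair of entries shares the position Mt:204632-207081, which covers an exon region of nad5 and the reading frame orf105-c, and the table does not say which is which. GRMZM5G825253 had 68.3 FPKM in hda108 and 71.4 FPKM in wild type, and GRMZM5G834128 had 33.6 FPKM in hda108 and 31.9 FPKM in wild type. Their log2 differences were -0.06 and 0.08, so this position showed almost the same level in both genotypes. GRMZM5G887911, which overlaps part of nad2, was listed at 0 in hda108 and had 0.496 FPKM in wild type. GRMZM5G851708, which holds orf110-a and orf126-a and overlaps nad4L, had 36.2 FPKM in hda108 and 30.1 FPKM in wild type.

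The ribosomal protein genes differed widely in level. Rps12, of the small ribosomal subunit (GRMZM5G881135, Mt:262384-262761), had 358 FPKM in hda108 and 296 FPKM in wild type, a log2 difference of 0.28. Its end lies 44 bases before the start of nad3, a pair that is transcribed together in plant mitochondria, and nad3 differed by 0.34. Rps4 (GRMZM5G849223, Mt:19813-20889) had 40.8 FPKM in hda108 and 30.3 FPKM in wild type, a log2 difference of 0.42. GRMZM5G861791, which covers rpl16 and rps3, had 7.70 FPKM in hda108 and 6.60 FPKM in wild type. Another entry that covers a place named rps3, GRMZM5G877040, was listed at 0 in hda108 and had 0.106 FPKM in wild type. Rps2A was listed at 0.117 FPKM in hda108 and 0.0392 FPKM in wild type, a ratio of 2.99, but on the log2 scale used here the difference was 0.19 because both values are far below 1 FPKM.

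Genes of the other respiratory complexes and of cytochrome c assembly were represented by few entries with sizeable values. GRMZM5G862955, which covers cox2, a core subunit of cytochrome c oxidase, had 8.33 FPKM in hda108 and 7.86 FPKM in wild type, a log2 difference of 0.08. Atp4, of the ATP synthase, had 0.218 FPKM in hda108 and was listed at 0 in wild type. GRMZM5G816772, which covers atp8, had 0.233 FPKM in hda108 and 0.229 FPKM in wild type. The ATP synthase entries were thus at or near 0 in both genotypes and give no measure of that complex. GRMZM5G867512, which covers ccmFN, a haem-handling protein of cytochrome c maturation, had 24.6 FPKM in hda108 and 19.3 FPKM in wild type, a log2 difference of 0.35. CcmC, which acts in the same pathway, was listed at 0.0646 FPKM in hda108 and 0.0567 FPKM in wild type.

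Of the remaining genes with a function name, GRMZM5G851769, which covers mat-r, the maturase encoded inside a nad1 intron, had 20.9 FPKM in hda108 and 18.9 FPKM in wild type, a log2 difference of 0.14. OrfX (GRMZM5G821527, Mt:496997-497812), which codes for a membrane protein related to the bacterial TatC transporter, had 29.6 FPKM in hda108 and 25.2 FPKM in wild type, a log2 difference of 0.22. Over the 17 entries with a function name that were above 0 in both genotypes, 15 were higher in hda108, with a median log2 difference of 0.19. With the median difference of all entries set to 0, 2 of these 15, ccmC and the entry covering atp8, turned to the other side of 0, as they also did under quantile normalization.

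The highest mitochondrial value belonged to a reading frame of unknown function. Orf147-b (GRMZM5G807592, Mt:356474-356917), which RefSeq places next to cox1, had 3162 FPKM in hda108 and 2974 FPKM in wild type, a log2 difference of 0.09. Its level was above that of nad4 in both genotypes. The pair of entries GRMZM5G836544 and GRMZM5G872234, which share the position Mt:564155-564946 and cover orf120 and orf149-a, had 412 and 236 FPKM in hda108 and 314 and 172 FPKM in wild type. Which of the pair is which reading frame is not given, and fragments could be split between them. Their log2 differences were 0.39 and 0.45.

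Other abundant reading frames were also higher in hda108. GRMZM5G827309, which covers orf1159, had 279 FPKM in hda108 and 233 FPKM in wild type, a log2 difference of 0.26. GRMZM5G892769, which covers orf396 and orf342, had 273 FPKM in hda108 and 195 FPKM in wild type, a log2 difference of 0.49. Orf140-b had 115 FPKM in hda108 and 89.3 FPKM in wild type, a log2 difference of 0.36. All 11 entries with a mean of at least 100 FPKM were therefore higher in hda108, from 0.08 to 0.49. The 11 are not all separate positions, since GRMZM5G836544 and GRMZM5G872234 share theirs, and rps12 lies beside nad3. As deposited, the smallest differences were those of nad4 and orf147-b, the 2 most abundant. Under quantile normalization nad4 stayed the lowest of the 11, at 0.13. Orf147-b was then at 0.28, above GRMZM5G827309 (0.23) and rps12 (0.27).

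The one entry past 2-fold was a short reading frame. Orf99-d (GRMZM5G845024, Mt:138031-138330, a span of 300 bp) had 7.88 FPKM in hda108 and 3.35 FPKM in wild type, a log2 difference of 1.12. The 3 clearly expressed short frames that went the other way were of similar level. Orf116-b had 4.54 FPKM in hda108 and 5.56 FPKM in wild type, a log2 difference of -0.27. Orf110-b had 5.27 FPKM in hda108 and 6.15 FPKM in wild type (-0.20), and orf106-c had 7.15 FPKM in hda108 and 7.97 FPKM in wild type (-0.15). The 6 entries of under 400 bp with a mean between 1 and 10 FPKM thus ran from -0.27 to 1.12, with 3 of 6 higher, a wider range than that of the 11 most abundant entries. Orf131-a, with 30.1 FPKM in hda108 and 29.8 FPKM in wild type, was nearly equal.

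Among the other compared reading frames, orf163 had 3.08 FPKM in hda108 and 1.95 FPKM in wild type, a log2 difference of 0.55. Orf911 had 12.1 FPKM in hda108 and 8.77 FPKM in wild type (0.44), and orf734 had 12.7 FPKM in hda108 and 10.1 FPKM in wild type (0.32). The 17 entries with both ends identical to those of a numbered orf, and above 0 in both genotypes, had 14 higher values in hda108. Their median log2 difference was 0.21, and 1 of them, orf191, also holds orf130. The entries without such a match hold several frames, or 1 frame and flanking sequence. With copy-numbered and tRNA entries left aside, 11 of 11 of these were higher, with a median of 0.45. The 11 are not all separate positions. GRMZM5G836544 and GRMZM5G872234 share 1 position, and GRMZM5G813949 and GRMZM5G819258 share another. Further examples of the 11 are GRMZM5G889036 (orf179), with 76.4 FPKM in hda108 and 55.4 FPKM in wild type (0.46), and GRMZM5G853409 (orf116-a and orf248), with 30.9 FPKM in hda108 and 20.9 FPKM in wild type (0.55). GRMZM5G844030 (orf101-c and orf186) had 27.5 FPKM in hda108 and 19.4 FPKM in wild type (0.49). In the 2 entries classed by tRNA genes inside, GRMZM5G863003 (trnD-a2, trnN-a2-ct and orf101-b) had 66.6 FPKM in hda108 and 58.4 FPKM in wild type. GRMZM5G894376 (trnD-a1 and trnN-a1-ct) had 4.87 FPKM in hda108 and 4.49 FPKM in wild type. Orf146-a (GRMZM5G870438), which also covers trnQ but was classed as a reading frame, was listed at 0 in both. Of the 4 compared entries with no complete RefSeq gene inside, GRMZM5G821687 had 30.9 FPKM in hda108 and 24.2 FPKM in wild type (0.35), and GRMZM5G892983 had 25.4 FPKM in hda108 and 20.2 FPKM in wild type (0.32). GRMZM5G800457, which overlaps ccmFC and orf102-a in part, had 15.7 FPKM in hda108 and 11.7 FPKM in wild type (0.41), while GRMZM5G854065 was at 0.272 FPKM in hda108 and 0.380 FPKM in wild type. Values above 10 FPKM were thus also listed for 3 positions that hold no complete RefSeq gene. The strand setting of the authors' counting is not given, so fragments from opposite strands of overlapping frames cannot be told apart.

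Differences were also set side by side within runs of neighbouring entries. Entries above 0 in both genotypes and at most 1000 bases apart formed 9 runs with 21 of the 52 entries. The run from Mt:17207 to Mt:22698, with GRMZM5G853409, rps4 and GRMZM5G892769, had log2 differences between 0.42 and 0.55. The run of GRMZM5G889036, rps12 and nad3 had differences between 0.28 and 0.46. The run of GRMZM5G836544, GRMZM5G872234 and nad6 had differences between 0.33 and 0.45. In 3 of the 9 runs the members lay on both sides of 0, namely orf191 and nad7 (0.21 and -0.06), orf106-c and orf119-c (-0.15 and 0.10) and the pair at nad5 (-0.06 and 0.08). Nad7 had only 0.0521 FPKM in hda108 and 0.0769 FPKM in wild type, so its sign cannot be read. The pair at nad5 shares 1 position. The median range within a run was 0.14, and the widest, 0.43, was that of GRMZM5G813949 and GRMZM5G819258, which share their position. Shared fragments, a shared transcript and shared position cannot be separated in these values.

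On this scale, the size of the difference varied with the level. The 11 mitochondrial entries with a mean of at least 100 FPKM had a median log2 difference of 0.33, beside 0.01 for the 644 nuclear entries at that level. Between 10 and 100 FPKM, 21 of 22 mitochondrial entries were higher in hda108, with a median of 0.25, beside 0.06 for 8069 nuclear entries. Between 1 and 10 FPKM it was 10 of 13 with a median of 0.21, beside 0.06 for 12273 nuclear entries. Under 1 FPKM 4 of 6 mitochondrial entries were higher, with a median of 0.01, beside 0.03 for 7194 nuclear entries. The mitochondrial median was thus above the nuclear one from 1 FPKM upward and not below that level.

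**Figure D3:**
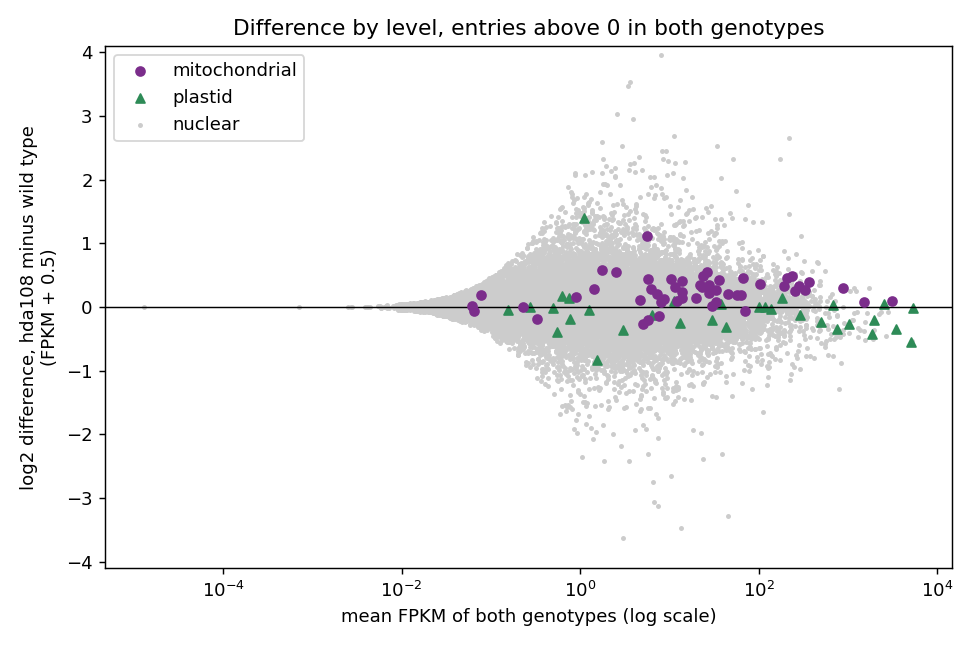
Difference in log2(FPKM + 0.5) of hda108 minus wild type (y axis), against the mean FPKM of both genotypes on a log scale (x axis), for the entries above 0 in both genotypes. The mitochondrial circles lie mostly just above 0 and the plastid triangles mostly just below it at high levels, inside the spread of the nuclear points in grey.

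By its median, the plastid genome, the other organelle genome, was listed in the opposite direction, but its summed FPKM was not. Of 32 plastid entries above 0 in both genotypes, 11 were higher in hda108 and 21 lower, with a median log2 difference of -0.09 and quartiles at -0.28 and 0.01. At 100 FPKM or more, 5 of 15 plastid entries were higher, against 11 of 11 mitochondrial entries. Among those mitochondrial entries, GRMZM5G836544 and GRMZM5G872234 share their position. The medians of nuclear chromosomes 1 to 10 lay between 0.04 and 0.07, and the shares of their entries that were higher lay between 56.0% and 60.6%. Summed over all 51 entries, the plastid genome had 27430 FPKM in hda108 and 26063 FPKM in wild type, a ratio of 1.05. That sum includes 5 entries with 5341 FPKM in hda108 that were listed at 0 in wild type, and the 32 entries above 0 in both genotypes summed to 22088 FPKM in hda108 and 26063 FPKM in wild type, a ratio of 0.848. The direction of the plastid sum therefore rests on entries with a listed 0. The mitochondrial median of 0.25 and the plastid median of -0.09 lay outside these ranges, on opposite sides. Neighbouring entries of an organelle genome are often transcribed together, so its entries are not all independent of each other. Without replicate values this contrast was not tested.

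**Figure D4:**
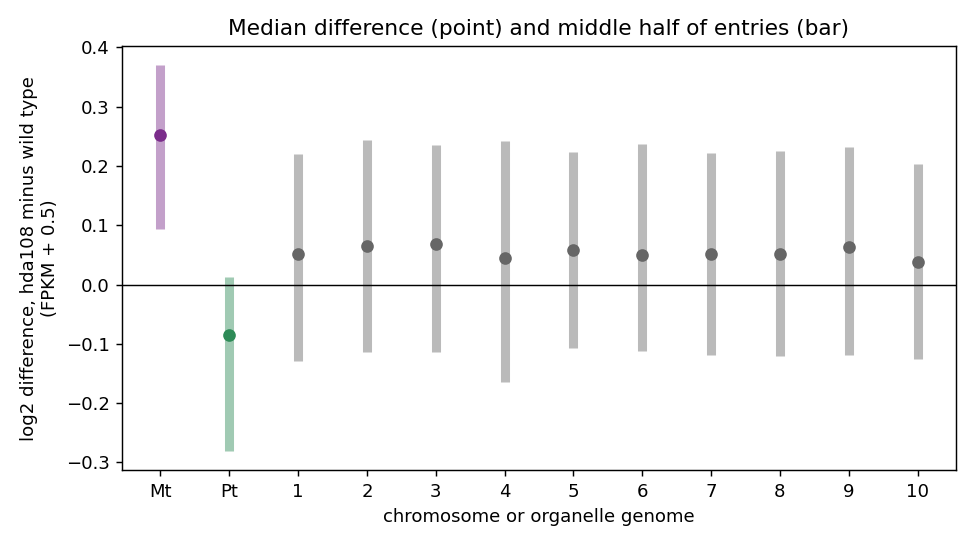
Median difference in log2(FPKM + 0.5) of hda108 minus wild type (points, y axis), with the 25th to 75th percentile of entries (bars), for the mitochondrial (Mt) and plastid (Pt) genomes and chromosomes 1 to 10 (x axis). The mitochondrial point is at 0.25, the plastid point at -0.09 and the nuclear points between 0.04 and 0.07.

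Summed over the 123 entries, the mitochondrial genome had 8693 FPKM in hda108 and 7624 FPKM in wild type, a ratio of 1.14. These sums made up 1.80% of all FPKM in hda108 and 1.59% in wild type. FPKM is a value per length, so these are not shares of reads. Orf147-b and nad4 alone held 54.1% of the mitochondrial sum in hda108 and 58.1% in wild type. The 121 other entries summed to 3990 FPKM in hda108 and 3197 FPKM in wild type, a ratio of 1.25. The nuclear entries summed to 445897 FPKM in hda108 and 445180 FPKM in wild type, almost the same, and the mitochondrial ratio was also 1.14 over the 52 entries above 0 in both genotypes.

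Nuclear genes of mitochondrial function were compared by a list filled from names. RefSeq symbols gave 2 members, and older names in the synonyms, searched after the table had been seen, brought the list to 45 entries. Of these, 43 were above 0 in both genotypes, with 21 higher in hda108, 22 lower and a median log2 difference of -0.01, beside 58.6% higher and a median of 0.05 among all entries. One member was at least 2-fold higher (1.44% of all entries) and 0 at least 2-fold lower (0.785% of all entries). That member, mtl2 (GRMZM2G402564), had 3.57 FPKM in hda108 and 1.36 FPKM in wild type. It entered the list by the letters of a synonym alone, and a mitochondrial function is not given for it here. Among the members with a clear mitochondrial role, ANT1 (GRMZM5G837108), an ADP/ATP carrier of the inner membrane, had 503 FPKM in hda108 and 471 FPKM in wild type, a log2 difference of 0.10. ANT2 (GRMZM2G135186), a second carrier, had 237 FPKM in hda108 and 201 FPKM in wild type (0.24). The organellar RNA polymerase genes rpot1 and rpoT2 differed by 0.01 and -0.14, and the prohibitin genes phb1, phb2 and phb3 by 0.07, -0.15 and -0.10. The list was drawn by letters alone and also holds genes of other functions, such as the C4 enzyme gene me3 (by its synonym NADP-ME), the cyclin gene cyc1 and the chloroplast gene-expression factor PPR10.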

How the data were processed

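The libraries were made from total RNA with a stranded kit and plant ribosomal RNA depletion, per the labels' protocols. The deposited values are FPKM, 1 per entry and genotype, made by the authors from 3 libraries each. Per the submitters' processing notes, the build was B73 RefGen_v3 and the tools included TopHat2 2.0.13, Cuffdiff 2.2.1 with Cufflinks, and Trimmomatic 0.33; their settings are not given in the sources used here. One column carries the word homo, taken as homozygous and so as hda108/hda108. The depth is unknown.

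Entries above 0 in both genotypes were compared by the log2 difference of FPKM + 0.5, with a 2-fold bound in place of a test. A value per library would have allowed limma, the planned test; none was used. Names came from positions, as described above. The naming rule was to name the highest 10 entries, those past 2-fold and those with a RefSeq symbol. Since positions gave 85 symbols, names were kept to function genes and examples of reading frames. The members and lists were chosen with earlier results of these data known. The work was done in Python 3.11.15 with pandas 2.3.3, numpy 2.4.6 and, for plots, matplotlib 3.10.9.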

Additional observations from a re-analysis of the deposited data

Results flagged for a closer look

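Some mitochondrial entries outside the fold comparison were listed at 0 in wild type but above 0 in hda108. They were atp4 (0.218 FPKM in hda108), orf158-a1 (0.128 FPKM), orf302 (0.0541 FPKM), orf417 (0.0356 FPKM) and GRMZM5G827951 (0.0245 FPKM), the last of which covers plastid-derived frames and shares its position with another entry. Another 4 entries were listed the other way round, at 0 in hda108 and at 0.106 to 0.496 FPKM in wild type. All 9 values lie under 0.5 FPKM, and a listed 0 does not show that a transcript was absent.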

How the results depend on the processing

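The median log2 difference of 0.25 ranged from 0.20, with the median of all entries set to 0, to 0.30, among entries with a mean of at least 10 FPKM, over the pseudocounts, filters, scalings and treatments of shared or short entries tried. The number of entries higher in hda108 was 43 of 52 under quantile normalization or with the median of all entries set to 0. It was 32 of 33 where the mean reached 10 FPKM. A pseudocount cannot change the sign of a difference, so the count of 46 of 52 under all 3 other pseudocount settings is no check. The ratio of the sums was 1.13 without shared entries and 1.25 without the 2 highest entries, the latter added after the values were seen. The count past 2-fold upward was 0 with a minimum mean of 10 FPKM and 0 without spans under 400 bp, since both leave out orf99-d. It was 2 with no pseudocount, an alternative added after the values were seen, where rps2A joined. Orf131-a, ccmC and the entry covering atp8 changed sign with the median of all entries set to 0 and under quantile normalization. Under each of these scalings, 15 of the 52 differences changed sign or changed in size by more than 1.5-fold. No paired analysis was possible because the table holds 1 value per genotype, and for the same reason no replicate could be left out.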
